A study of Danio rerio with 6 samples.

Results

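The short single-exon intergenic lncRNAs of ZF4 cells, an embryonic fibroblast cell line of zebrafish, are described here. Members were taken by position and structure alone. They are the assembled lncRNAs on chromosomes 1 to 25 that have 1 exon, a length below 400 nt and no gene named at their locus. The rule was met by 1505 of the 8363 transcripts in the table of assembled lncRNAs (18.0%). They make up 31.8% of the 4731 intergenic lncRNAs on these chromosomes, and 41.3% of those with 1 exon. They are set beside the 1805 intergenic lncRNAs with 1 exon and a length from 400 nt to below 2000 nt, called the longer class.

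Total RNA was sequenced from 3 cold acclimated cultures, kept at 18°C for 30 days, and from 3 control cultures kept at 28°C. Both groups are the same line in the same medium. The labels state a temperature for both groups, but a time in days for the cold acclimated cultures alone. Temperature and time in culture therefore cannot be told apart from the labels. Libraries were stranded and depleted of ribosomal RNA, and the authors assembled and quantified the transcripts on GRCz10. Expression is FPKM, a count of fragments scaled to transcript length and library size, deposited as the authors' mean over the cultures of each group. With a mean per group and no value per culture, no spread between replicates could be computed and no difference below carries a test. Only lncRNAs were analysed, so the fibroblast identity of the cells was not checked against marker genes.

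Long non-coding RNAs are transcripts that exceed a set minimum length and have little coding capacity. Intergenic ones lie between annotated genes, and those with a single exon are made without splicing. Transcripts of this kind can come from enhancers, from transcription that starts near or runs past a gene, and from repeats, and many are removed soon after they are made. Few have a known role. Those below are therefore described by level, position and response, and carry only the identifiers of the assembly.

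The members were close to the lower limit of the table in length, and their levels were low. Their median length was 273 nt (quartiles 230 and 330 nt, lowest 200 nt), against 709 nt in the longer class. The width of the interval equalled the length for each of the 1505, and none shared its locus identifier with another transcript. The 3 members nearest below the limit, each 1 nt short of it, were MSTRG.4189.1, MSTRG.14245.1 and MSTRG.22663.1. They had 0.432, 0.0936 and 0.179 FPKM in cold acclimated cells, and 0.842, 1.15 and 0.760 FPKM in control cells. Just outside, at 400 nt, MSTRG.1461.1, MSTRG.8677.1 and MSTRG.20203.1 had 0.422, 1.06 and 1.28 FPKM in cold acclimated cells, and 1.18, 1.43 and 1.29 FPKM in control cells.

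The median mean level of the members was 0.512 FPKM in cold acclimated cells (quartiles 0.172 and 0.817 FPKM) and 0.731 FPKM in control cells (quartiles 0.428 and 1.06 FPKM). In the longer class the medians were 0.709 FPKM in cold acclimated cells and 1.14 FPKM in control cells. Over all 8363 transcripts they were 0.736 FPKM in cold acclimated cells and 1.12 FPKM in control cells. A mean above 1 FPKM was reached by 18.9% of the members and 34.3% of the longer class in cold acclimated cells, and by 29.0% of the members and 61.3% of the longer class in control cells. The bulk of the members was thus below the level of the longer class in both groups.

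FPKM divides by length, so the same FPKM rests on fewer fragments in a shorter transcript. FPKM multiplied by the length in kb, called the fragment value here, grows with the number of fragments that stand behind a transcript. Its median in cold acclimated cells was 0.133 for the members and 0.504 for the longer class. In control cells it was 0.199 for the members and 0.842 for the longer class. Library depths are not known here, and fragment values could not be turned into numbers of fragments. Within the members, length and level were only loosely related, with a Spearman's rho over 1505 transcripts of 0.07 for the cold acclimated mean and 0.19 for the control mean. All transcripts share the same libraries, so these values are descriptions and carry no p.

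Every transcript entered the table through a filter on expression, which the authors set at 0.5 FPKM in at least 1 sample. A single sample can pass it, so a group mean can lie below 0.5 FPKM. Over all transcripts the lowest value of the higher mean was 0.188 FPKM. Where the cold acclimated mean was the higher of the 2, the lowest value among the members was 0.422 FPKM and 53.0% of the 610 members were below 0.75 FPKM. Where the control mean was the higher, the lowest was 0.455 FPKM and 32.2% of the 895 members were below 0.75 FPKM. In the longer class these shares were 12.3% and 8.81%. The higher mean of a member was thus below 0.75 FPKM far more often than that of a longer transcript. For 127 members (8.44%) the mean was at most 0.5 FPKM in both groups, compared with 6 of the longer class. Of these 127, the cold acclimated mean was the higher in 105.

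**Figure D1:**
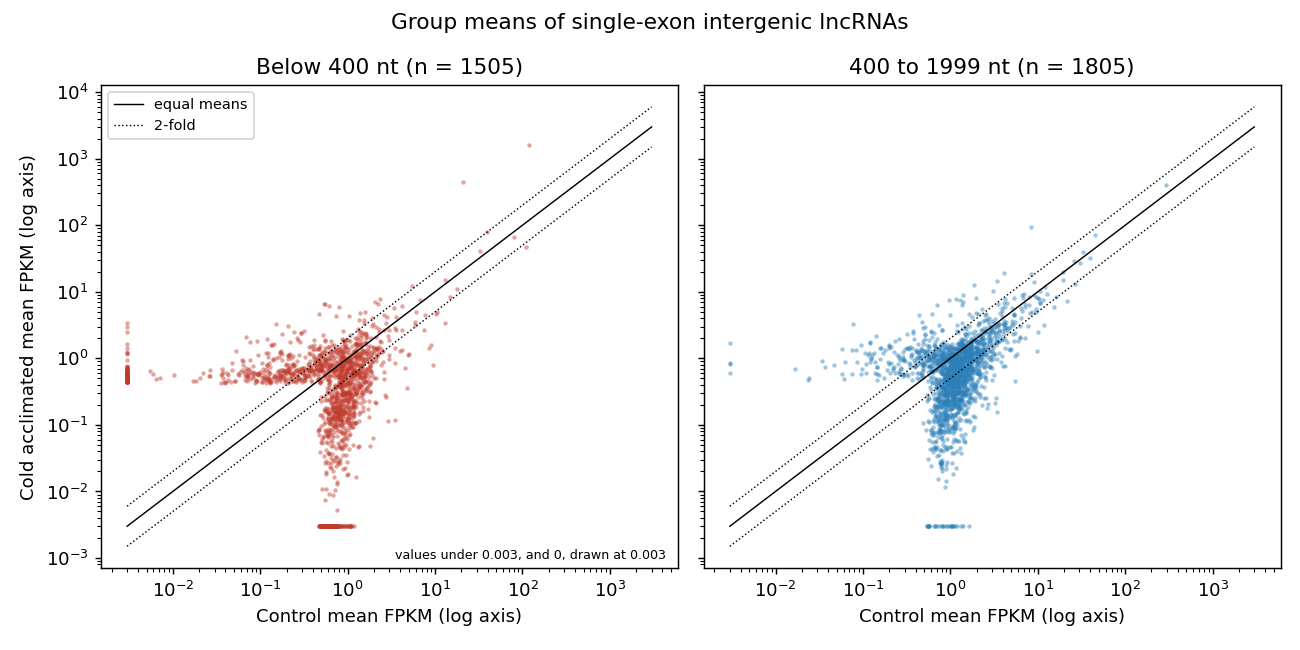
Authors' mean FPKM in control cells (x) and cold acclimated cells (y) on log axes for single-exon intergenic lncRNAs below 400 nt (left, n = 1505) and from 400 nt to below 2000 nt (right, n = 1805), with values listed at 0 drawn at a fixed low value on each axis. The solid line marks equal means and the dotted lines a 2-fold difference. Members form an arm along each limit of entry, with 2 points far above the rest at 1579.8 and 447 FPKM in cold acclimated cells.

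The scatter of the means has a corner shape. Both means exceeded 0.5 FPKM for 466 members (31.0%), only the cold acclimated mean did for 313 (20.8%) and only the control mean for 39.8%. For longer transcripts the same shares were 55.0%, 7.98% and 36.7%. The means of the groups were almost unrelated across the members, with a Spearman's rho of 0.10 over 1505 transcripts, against 0.37 over the 1805 of the longer class. Because entry required expression in 1 sample, transcripts low in all samples could not enter, and the part of this in the rho was not tested.

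Values listed at 0 were more frequent among the members. In cold acclimated cells 133 members (8.84%) were listed at 0, against 28 of the longer class (1.55%) and 4.40% of all transcripts. In control cells 105 members (6.98%) were listed at 0, against 4 of the longer class (0.222%) and 2.94% of all transcripts. None was listed at 0 in both groups. Control means of the 133 had a median of 0.632 FPKM and a maximum of 1.17 FPKM, and 9 of them exceeded 1 FPKM. Cold acclimated means of the 105 had a median of 0.512 FPKM and a maximum of 3.43 FPKM, and 8 of them exceeded 1 FPKM. The values in the other group were low in nearly all cases. No linear fold is given for a transcript listed at 0, and its log2 ratio, which enters the counts past 2-fold, depends on the pseudocount.

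A few members carried much of the summed expression. Summed over the members, the means came to 3322 FPKM in cold acclimated cells and 1734 FPKM in control cells. MSTRG.21582.1 alone held 47.6% of the sum in cold acclimated cells, and with MSTRG.21602.1 it held 61.0%. Without these, the sum in cold acclimated cells was 1295 FPKM. The higher sum in cold acclimated cells thus rested on 2 transcripts. The sum of the others in cold acclimated cells was 0.813 times the sum of the same members in control cells.

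MSTRG.21582.1 has 257 nt and lies on chromosome 4 (GRCz10, chr4:2715222-2715478). It had 1579.8 FPKM in cold acclimated cells and 120.025 FPKM in control cells, a 13.2-fold difference, and was the most abundant member in each group. MSTRG.21602.1, of 388 nt and about 1 Mb further on (chr4:3751763-3752150), had 447 FPKM in cold acclimated cells and 20.7 FPKM in control cells, a 21.6-fold difference. It ranked second among the members in cold acclimated cells and 6th in control cells. It is the member that the study's text names, among the lncRNAs that the authors also measured by qRT-PCR. Those measurements were not used here. The log2 ratios, cold acclimated over control after adding 0.1 FPKM to each mean, were 3.72 and 4.43. At this level the pseudocount hardly matters, and with 1 FPKM in its place they were 3.71 and 4.37.

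The other abundant members were higher, lower or near equal in the cold. MSTRG.12760.1 (289 nt, chr2:17841738-17842026) had 79.9 FPKM in cold acclimated cells and 39.4 FPKM in control cells, a log2 ratio of 1.02. The closest other transcript, MSTRG.12758.4, lies 13.1 kb away at pimr198, a gene of the Pim kinase-related family, and had 287 FPKM in cold acclimated cells and 80.7 FPKM in control cells. Both were thus higher in the cold by more than 2-fold. MSTRG.20043.1 (271 nt, chr3:2783527-2783797) went the other way, with 46.4 FPKM in cold acclimated cells and 109.6 FPKM in control cells, a log2 ratio of -1.24, or -0.60 once both groups are scaled to the same median ratio.

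MSTRG.23402.1 and MSTRG.6782.1 were abundant in both groups and less than 2-fold apart. MSTRG.23402.1 (370 nt, chr4:63868130-63868499) had 67.7 FPKM in cold acclimated cells and 79.7 FPKM in control cells, a log2 ratio of -0.24 that turns to 0.40 after scaling. It overlaps MSTRG.23401.1, an assembled transcript of 2 exons, which had 0.996 FPKM in cold acclimated cells and was listed at 0 in control cells, and reads of the pair may be shared. MSTRG.6782.1 (240 nt, chr15:1658492-1658731) had 41.7 FPKM in cold acclimated cells and 32.7 FPKM in control cells. Its closest other transcript lies 205 kb away, at taf15, which encodes an RNA-binding protein. In all, 13 members exceeded 10 FPKM in at least 1 group. Of these 4 were higher in the cold by more than 2-fold, 4 were lower by as much, and 5 lay within 2-fold. Among all transcripts that passed the limit described next, 13.3% were higher and 39.4% lower. Most of those lie below 10 FPKM, and shares over all transcripts above 10 FPKM were not computed.

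The study asked which lncRNAs differ between cold acclimated and control cells. For the members, the log2 ratio was taken for the 1378 in which either mean exceeded 0.5 FPKM. Higher in the cold by more than 2-fold were 280 members (20.3%), against a background of 13.3% of all 8108 transcripts that passed the same limit. More than 2-fold lower were 611 (44.3%), against a background of 39.4%. Among longer transcripts 163 of 1799 (9.06%) were higher and 755 (42.0%) lower. More than 4-fold higher were 138 members (10.0%), against a background of 6.02%, and more than 4-fold lower were 314 (22.8%), against 16.6%. The share of members that were higher was thus above that of all transcripts, and the share that were lower exceeded the background by less in proportion. The FPKM limit was passed mainly through the group where a member is high, so these counts describe the list as filtered.

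In the middle of the distribution the classes were close, and they differed in width. The median log2 ratio of the members was -0.75, close to -0.79 in the longer class. Over all transcripts it was -0.63, so relative to the table as a whole the members were lower by 0.12 and the longer class by 0.15 on the log2 scale. The quartiles were -1.93 and 0.69 for the members and -1.58 and 0.00 for the longer class. Only 35.3% of the members were within 2-fold, against 49.0% of the longer class and 47.3% of all transcripts. Scaled to a median log2 ratio of 0 over all transcripts, 427 members (31.0%) were higher and 433 (31.4%) lower, beside 23.5% and 23.9% of all transcripts. The balance of higher and lower members therefore depended on the scaling between the groups.

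**Figure D2:**
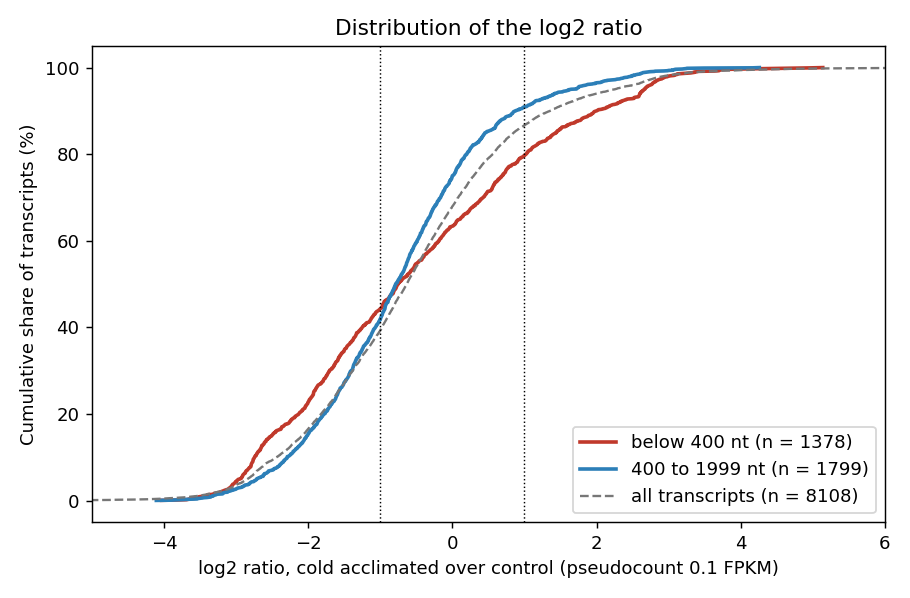
Cumulative share of transcripts (%, y) by log2 ratio of cold acclimated over control means after adding 0.1 FPKM (x), for members below 400 nt (n = 1378), the longer class (n = 1799) and all transcripts (n = 8108) with either mean above 0.5 FPKM. Dotted lines mark 2-fold. The curves cross near their medians of -0.75 and -0.79, and the curve of the members is the flatter, with 20.3% of them right of the upper dotted line.

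A mean above 0.5 FPKM was then required in both groups, a limit chosen after seeing the data. The share of higher members was then close to that of all transcripts. Of 466 members, 35 (7.51%) were more than 2-fold higher and 57 (12.2%) more than 2-fold lower, beside 7.10% and 15.9% of all 4453 transcripts that pass it. In the longer class 5.14% of 993 were higher and 15.7% lower. Within 2-fold were 80.3% of these members and 79.2% of the longer class. Requiring expression in both groups favours small ratios by construction. The median log2 ratio of these members was -0.17, against -0.37 in the longer class and -0.27 over all transcripts. The members thus lay above the median of all transcripts here, but below it with the main limit.

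The share of higher transcripts was smaller in longer length classes on both sides of the 400 nt limit, apart from near-equal shares in the middle of the members. It was 23.9% below 250 nt, 19.6% from 250 nt, 20.2% from 300 nt and 14.1% from 350 nt to below 400 nt. Past the limit it was 12% from 400 nt, 8.41% from 600 nt and 6.22% from 1000 nt. Over all transcripts it was 13.3%. The share of lower transcripts had no such order and lay between 40.7% and 45.2% in the 7 classes, beside 39.4% of all transcripts. The distance between the quartiles of the log2 ratio was 2.83 in the shortest class and 1.45 in the longest. Listing at 0 in cold acclimated cells followed length too, at 11.9% in the shortest class, 4.96% in the longest class of the members and 0.533% from 1000 nt. In control cells the share listed at 0 was 10.0% in the shortest class, 2.48% from 350 nt and 0.298% from 400 nt. A transcript passes the FPKM limit mainly through the group where it is high, so the shares past 2-fold describe the list as filtered. The classes on either side of 400 nt were close in the share that was higher, at 14.1% and 12%.

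**Figure D3:**
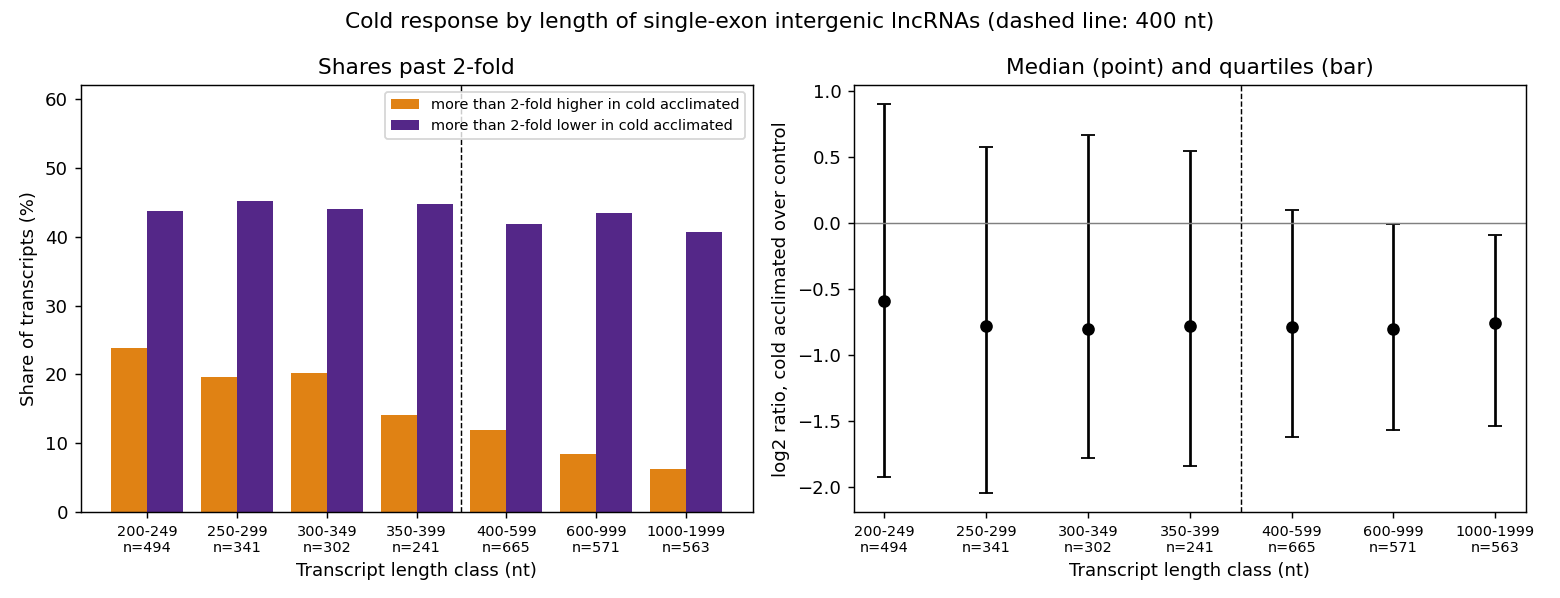
Shares of transcripts more than 2-fold higher or lower in cold acclimated cells (left, %) and the median and quartiles of the log2 ratio (right) in 7 length classes, for transcripts with either mean above 0.5 FPKM. The dashed line marks 400 nt. The share that was higher was 23.9% in the shortest class and 6.22% in the longest, while the share that was lower lay between 40.7% and 45.2%. Over all transcripts that passed the same limit the shares were 13.3% and 39.4%.

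The members had lower levels than the longer class, so the 2 were also set side by side at matched levels. With the higher of the 2 means between 0.5 and 0.75 FPKM, 31.4% of 484 members and 14.2% of 169 longer transcripts were higher in the cold by more than 2-fold. Between 0.75 and 1 FPKM the shares were close, at 8.59% of 326 members and 7.22% of 360 longer transcripts. Between 1 and 1.5 FPKM they were 13.4% and 7.13%, between 1.5 and 3 FPKM 18.5% and 8.99%, and above 3 FPKM 37.1% of 62 members and 15.3% of 177 longer transcripts. The share of lower transcripts was close in each of these classes, for example 43.6% of the members and 44.6% of the longer transcripts between 1 and 1.5 FPKM. Since a transcript enters a class through the group where it is high, these shares are tied to how the classes were made and describe the list as filtered. With both means above 0.5 FPKM the share of higher members, 7.51%, was close to the 7.10% of all transcripts.

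At matched fragment values, a comparison chosen after seeing the data and tied to the higher mean in the same way, the order depended on the class. With a fragment value of the higher mean between 0.1 and 0.2, 134 of 446 members (30.0%) were higher and 48.0% lower. No transcript of the longer class passed the FPKM limit there, so these members could not be matched. Between 0.2 and 0.3, 14.0% of 387 members and 20.8% of 48 longer transcripts were higher, beside 13.3% of all transcripts that passed the limit. Between 0.3 and 0.5 the shares were 12.5% of 360 members and 7.91% of 253 longer transcripts. Between 0.5 and 1 they were 18.0% of 128 members and 8.5% of 647 longer transcripts. Above 1 they were 42.1% of 57 members and 9.17% of 851 longer transcripts. In the last class 24.6% of the members and 37.3% of the longer transcripts were lower. The members with the highest fragment values had a median log2 ratio of 0.35, against -0.66 for the longer transcripts in the same class.

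The members with the largest log2 ratios were mostly those listed at 0 in control cells. MSTRG.1414.1 (331 nt, chr10:4653853-4654183) had 3.43 FPKM in cold acclimated cells and was listed at 0 in control cells. The closest other transcript, MSTRG.1415.1 at 22.4 kb, had a log2 ratio of -2.09. MSTRG.30053.1 (387 nt, chr9:9937826-9938212) had 2.99 FPKM in cold acclimated cells, and MSTRG.3202.1 (228 nt, chr11:38986188-38986415) had 2.45 FPKM. Both were listed at 0 in control cells, and their closest neighbours had log2 ratios of -1.33 and -1.02. These 3 neighbours thus had log2 ratios of the opposite sign.

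MSTRG.17386.1 (366 nt, chr23:14169974-14170339) had 1.66 FPKM in cold acclimated cells, and MSTRG.7701.1 (227 nt, chr15:44891538-44891764) had 1.42 FPKM. Neither had a control value above 0. MSTRG.17386.1 has a neighbour of 696 nt at 1.78 kb, MSTRG.17385.1, which had 1.32 FPKM in cold acclimated cells and 2.16 FPKM in control cells. The neighbour of MSTRG.7701.1 at 22.2 kb, MSTRG.7700.1, had a log2 ratio of 0.79, and MSTRG.21608.1, at 58.6 kb from MSTRG.21602.1, had 4.26, so these had the same sign as the member beside them. MSTRG.7701.1 lies 105 kb from the closest assembled lncRNA at a named gene, gria4a, which encodes a subunit of AMPA-type glutamate receptors. With a pseudocount of 1 FPKM the log2 ratios of these 5 members were 1.27 to 2.15, in the same order, and all were then below the 4.37 of MSTRG.21602.1.

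At the other end, MSTRG.7685.1 (212 nt, chr15:44136256-44136467) had 0.119 FPKM in cold acclimated cells and 3.49 FPKM in control cells, a log2 ratio of -4.04. MSTRG.1205.1 (231 nt, chr1:57539878-57540108) had 0.114 FPKM in cold acclimated cells and 2.93 FPKM in control cells. Its neighbour 1.09 kb away, MSTRG.1204.1, had a log2 ratio of -2.90, in the same direction. MSTRG.30428.1 (275 nt, chr9:28062039-28062313) had 0.0489 FPKM in cold acclimated cells and 1.82 FPKM in control cells. Its nearest neighbour is 62.4 kb away and had a log2 ratio of 0.09.

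MSTRG.4884.1 (281 nt, chr13:20637094-20637374) had 0.0628 FPKM in cold acclimated cells and 1.96 FPKM in control cells. It overlaps MSTRG.4883.1, a transcript of 4 exons with 0.767 FPKM in cold acclimated cells and 1.33 FPKM in control cells, so its own value is uncertain. MSTRG.20213.1 (329 nt, chr3:10000653-10000981) and MSTRG.11028.1 (340 nt, chr18:43303134-43303473) had 1.17 and 1.13 FPKM in control cells, and both were listed at 0 in the cold. These lowest members had control levels of a few FPKM at most, unlike MSTRG.21582.1 and MSTRG.21602.1 at the top.

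Members were found on each of the 25 chromosomes, from 35 on chromosome 11 to 120 on chromosome 4, with a median of 61. Chromosomes were measured from the first to the last assembled lncRNA, since chromosome lengths were not used here. By that span there were 0.777 members per Mb on chromosome 11 and 1.57 per Mb on chromosome 4. The longer class ranged from 0.832 per Mb on chromosome 13 to 1.91 per Mb on chromosome 14. Chromosome 4 also had the most members per longer transcript, 1.22, and chromosome 6 the fewest, 0.563. On chromosome 17 the members made up 27.8% of all assembled lncRNAs, and on chromosome 11 13.9%.

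The median log2 ratio of the members was below 0 on each chromosome, lowest on chromosome 12 at -1.42 and nearest to 0 on chromosome 21 at -0.11, although medians above the -0.63 of all transcripts turn positive after scaling. Of the chromosome 12 members, 28 of 49 (57.1%) were more than 2-fold lower, against the background of 39.4%, and 6 (12.2%) were more than 2-fold higher, against the background of 13.3%. On chromosome 9, 32 of 70 (45.7%) were lower and 18 (25.7%) higher, and on chromosome 5, 33 of 76 (43.4%) were lower and 15 (19.7%) higher. The order of the chromosomes was not that of the longer class. On chromosome 13 the median was -1.25 for the members and -0.01 for the longer class, while on chromosome 21 it was -0.11 for the members and -0.89 for the longer class.

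**Figure D4:**
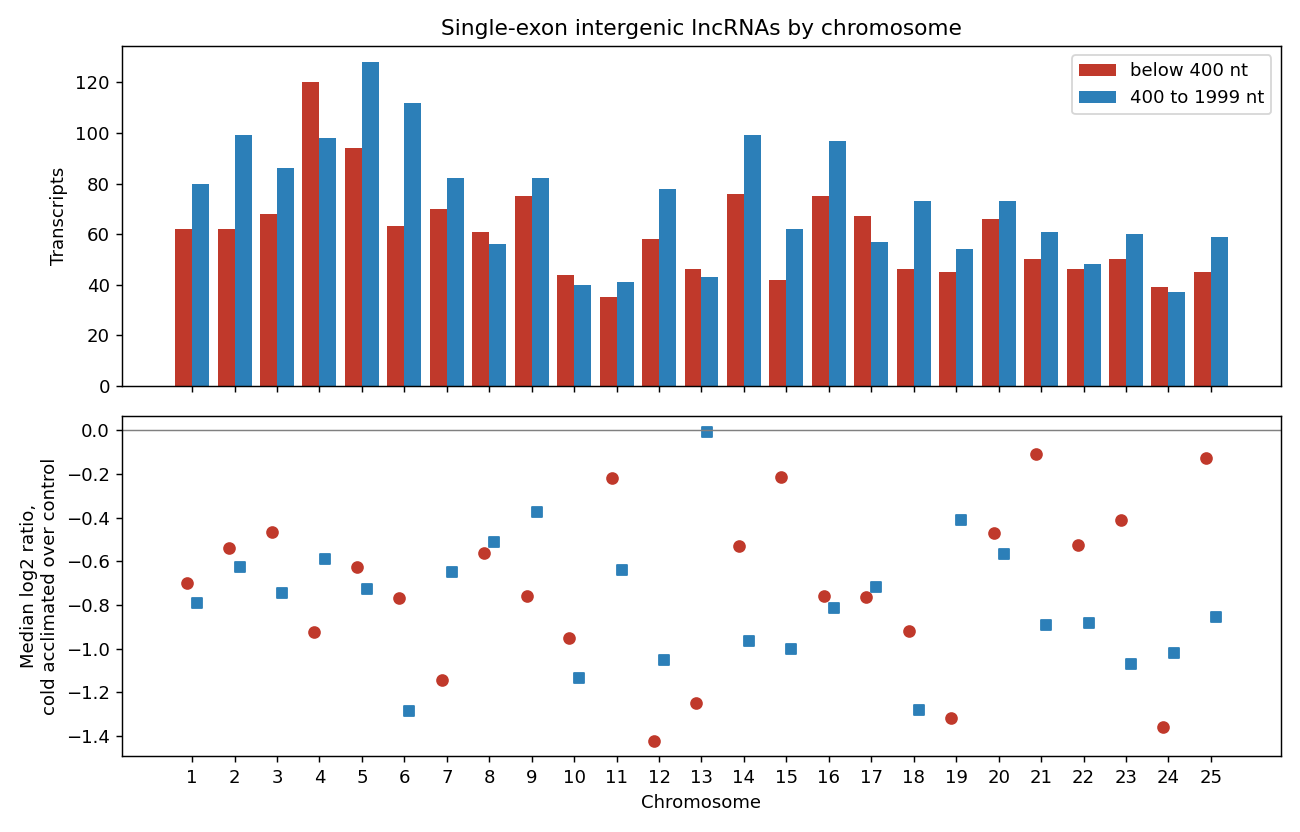
Number of single-exon intergenic lncRNAs below 400 nt and from 400 nt to below 2000 nt on each chromosome (top) and the median log2 ratio of each class, cold acclimated over control, where either mean exceeded 0.5 FPKM (bottom). Chromosome 4 has 120 members and chromosome 11 has 35. All 25 medians of the members lie below 0, between -1.42 and -0.11, before scaling to the median of all transcripts of -0.63.

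Chromosome 4 of zebrafish has a long arm that is rich in repeats and poor in well-described genes. From 20 Mb on, a limit chosen after seeing the data, it held 96 members and 81 longer transcripts, and before 20 Mb it held 24 and 17. The parts differed in response. From 20 Mb on, 9 of 89 members (10.1%) were more than 2-fold higher and 48 (53.9%) more than 2-fold lower, with a median log2 ratio of -1.24. Before 20 Mb, 11 of 23 (47.8%) were higher and 6 (26.1%) lower, with a median of 0.77. The positive median came from the first 10 Mb. Between 10 and 20 Mb, 3 of 12 members were higher and 5 lower, with a median of -0.33. On the other chromosomes 20.5% of the members were higher and 44.0% lower, with a median of -0.75, and over all transcripts the shares were 13.3% and 39.4%. The longer class had close medians, -0.59 from 20 Mb on and -0.65 before it, but its share of higher transcripts also differed, with 6 of 81 (7.41%) from 20 Mb on and 5 of 17 (29.4%) before it.

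The first 10 Mb of chromosome 4 held 11 members, of which 8 were higher in the cold by more than 2-fold and 1 was lower by as much. MSTRG.21582.1 and MSTRG.21602.1 are among the 8. Of the 33 other assembled lncRNAs in this stretch that passed the limit, 18 (54.5%) were higher and 2 lower, against the background of 13.3% and 39.4%. The stretch thus held many higher transcripts besides the members. The 10 Mb limit was set with these values known.

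Within it, 4 members lay in a row from chr4:4128064-4128390 to chr4:4210132-4210447. MSTRG.21611.1 had 3.71 FPKM in cold acclimated cells and 1.36 FPKM in control cells. MSTRG.21609.1 had 0.950 FPKM in cold acclimated cells and 0.0758 FPKM in control cells, and MSTRG.21610.1 had 1.16 FPKM in cold acclimated cells and 0.221 FPKM in control cells. MSTRG.21614.1 had 1.40 FPKM in cold acclimated cells and 0.469 FPKM in control cells. All 4 were higher, with log2 ratios of 1.38 to 2.58. Further on, MSTRG.21694.1 had 4.33 FPKM in cold acclimated cells and 0.732 FPKM in control cells. The 3 members of the stretch that were not more than 2-fold higher were MSTRG.21696.1, with 0.0808 FPKM in cold acclimated cells and 0.836 FPKM in control cells, and MSTRG.21496.1 and MSTRG.21702.1, with log2 ratios of -0.40 and 0.24.

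The members lay further from other assembled lncRNAs than the longer class did. The median gap to the nearest other transcript of the table was 39.1 kb (quartiles 8.06 and 113.8 kb), against 13.4 kb (quartiles 1.44 and 75.9 kb). Within 10 kb of another transcript lay 412 members (27.4%) and 834 of the longer class (46.2%). More than 100 kb from any lay 432 members (28.7%) and 375 of the longer class (20.8%). For 45 members the interval overlapped another transcript, and reads of such pairs can be divided in the quantification. Of these, 11 overlapped an assembled lncRNA at a named gene. Within 10 kb of such an lncRNA lay 34 members (2.26%) and 81 of the longer class (4.49%). The median distance to an assembled lncRNA at a named gene was 234.6 kb for the members and 211.5 kb for the longer class. Distances to annotated genes were not analysed here.

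The members that lay closest to other transcripts had higher levels. The 45 that overlapped another had medians of 1.04 FPKM in cold acclimated cells and 1.55 FPKM in control cells. The 77 within 1 kb had medians of 0.667 FPKM in cold acclimated cells and 0.871 FPKM in control cells. The 432 beyond 100 kb had medians of 0.515 FPKM in cold acclimated cells and 0.662 FPKM in control cells. The share of members more than 2-fold higher in the cold was 6.98% where they overlapped, 12.2% within 1 kb, 15.0% at 1 to 10 kb, 22.1% at 10 to 100 kb and 24.3% beyond. Over all transcripts that passed the limit it was 13.3%. More than 2-fold lower were 48.8%, 31.1%, 46.9%, 46.2% and 41.6% of the members in the same order, beside 39.4% of all transcripts. A member passes the limit mainly through the group where it is high, so these shares describe the list as filtered. For longer transcripts the share was 4.43% within 1 kb and 12.9% beyond 100 kb.

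The log2 ratio of a member was loosely related to that of its nearest transcript where the gap was small. Spearman's rho was 0.19 over 43 overlapping pairs, 0.36 over 73 pairs within 1 kb, 0.29 over 266 pairs at 1 to 10 kb, 0.09 over 590 pairs at 10 to 100 kb and 0.03 over 360 pairs beyond. Longer transcripts had 0.25 over 89 overlapping pairs, 0.75 over 270 pairs within 1 kb and 0.51 over 463 pairs at 1 to 10 kb. The pairs share libraries, and a transcript can stand in several pairs, so these values are descriptions with no p. Where a member and its neighbour at 1 to 10 kb were both past 2-fold, 89 of 106 pairs (84.0%) had the same direction. Beyond 100 kb this was so for 71 of 128 pairs (55.5%) of the members and 45 of 84 (53.6%) of the longer class.

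**Figure D5:**
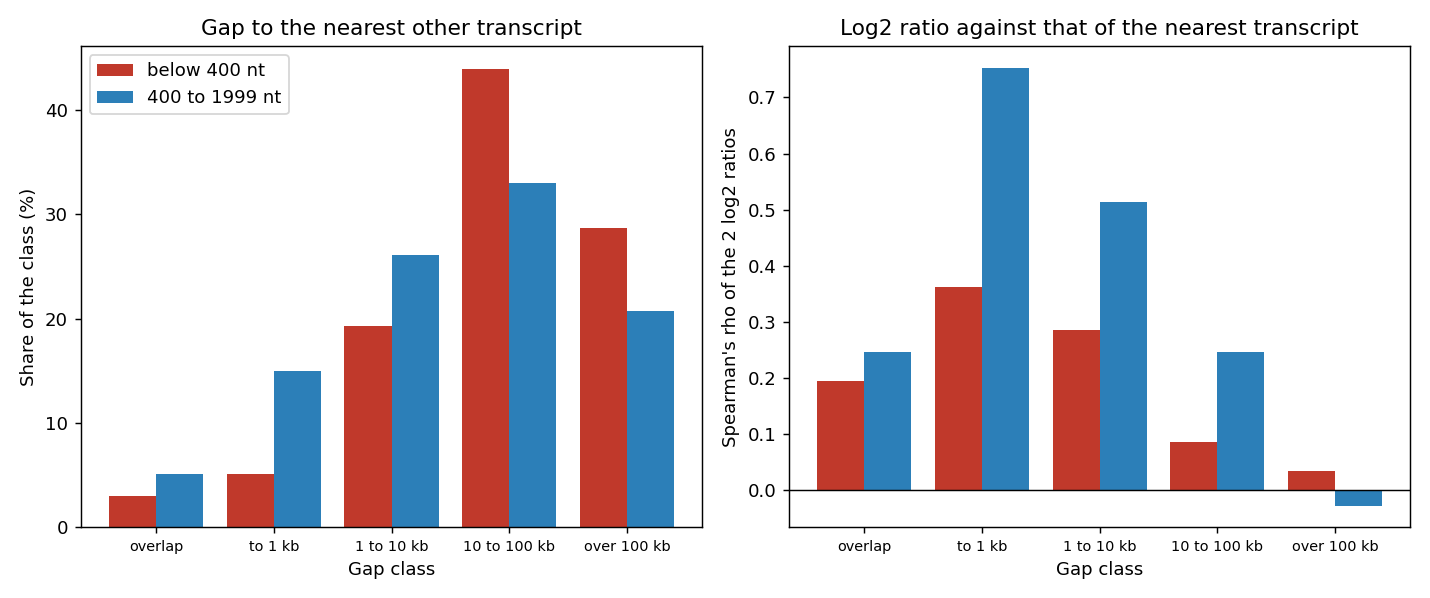
Share of each class (%, left) and Spearman's rho between the log2 ratio of a transcript and that of its nearest other assembled lncRNA (right) by gap, for members below 400 nt and the longer class. Members lie further from other transcripts, and their rho within 1 kb is 0.36, against 0.75 for the longer class.

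Rows of members were short. With gaps of at most 10 kb, 159 members (10.6%) stood in 76 runs of 2 or 3, while the longer class had 502 transcripts (27.8%) in 200 runs of up to 10. The 7 longest runs of the members, all of 3, are given here. In the run at chr1:3152133-3163841, MSTRG.82.1, MSTRG.83.1 and MSTRG.84.1 had log2 ratios of -2.27, -2.38 and -2.10, with 0.10 to 0.148 FPKM in cold acclimated cells and 0.775 to 1.19 FPKM in control cells. In the run at chr6:49292166-49308782 the log2 ratios were -1.58, -1.90 and -1.55, and its most abundant member, MSTRG.26779.1, had 3.37 FPKM in cold acclimated cells and 12.9 FPKM in control cells. The members of these runs were close to each other in response.

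The run at chr3:37458138-37459716 holds MSTRG.21000.1 and MSTRG.21001.1, which are listed with the same start and end (chr3:37459419-37459716). The table gives no strand, but entries with the same interval and locus numbers of their own may lie on opposite strands. MSTRG.21001.1 had 0.808 FPKM in cold acclimated cells and 9.47 FPKM in control cells, a log2 ratio of -3.40. MSTRG.21000.1 had 1.39 FPKM in cold acclimated cells and 2.40 FPKM in control cells, a log2 ratio of -0.75. The other member of this run, MSTRG.20996.1, had 0.720 FPKM in cold acclimated cells and 4.58 FPKM in control cells. All 3 log2 ratios were below 0, and 2 of them were past 2-fold.

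In the runs at chr17:14032032-14041367 and chr25:25260251-25261812 all log2 ratios were below 0 as well, at -2.01 to -0.53 and at -1.61 to -0.52. Each of the other runs held 1 member with neither mean above 0.5 FPKM. At chr12:39116072-39134365, MSTRG.4237.1 and MSTRG.4239.1 had log2 ratios of -1.11 and -2.62, and MSTRG.4241.1, below the limit, had 0.479 FPKM in cold acclimated cells and 0.284 FPKM in control cells. At chr25:33856380-33868262, MSTRG.19750.1 had 0.527 FPKM in the cold with a control value of 0, and MSTRG.19752.1 had a log2 ratio of -1.17. MSTRG.19751.1, below the limit, had 0.478 FPKM in cold acclimated cells and 0.115 FPKM in control cells. Of the 68 runs among members that passed the limit, 8 had log2 ratios above 0 throughout, 37 below 0 throughout and 23 of both signs (33.8%). In the longer class, 19 of 200 runs were above 0 throughout, 160 below 0 throughout and 21 of both signs (10.5%). Among the 63 runs of 2 members, 63.5% had a single direction. The shares of each sign among all members that passed the limit would give 53.6% for a pair. In the longer class, 92.4% of 144 runs of 2 had a single direction, and its shares of each sign would give 62.5%.

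On the scale of 2 Mb, 66 windows held 5 or more members that passed the limit. Their median log2 ratio was below 0 in 52 and above 0 in 14. In the 59 windows with 5 or more other assembled lncRNAs, the medians of those others were also mostly below 0, from -2.89 to 0.23. The median of all transcripts was itself -0.63, so window medians between that value and 0 turn positive after scaling. The lowest median, -2.38 over 9 members, was on chromosome 12 between 38 and 40 Mb, where 32 other assembled lncRNAs had a median of -2.20. The next, -2.31 over 10 members, was on chromosome 1 between 2 and 4 Mb, where 28 others had a median of -1.93. The highest median, 0.98 over 6 members, was on chromosome 18 between 48 and 50 Mb, where 5 others had a median of -1.44. Over the 59 windows with 5 or more others, the medians of the members and of the others had a Spearman's rho of 0.45. Members and others were low together in the lowest windows, but not in each low window. On chromosome 9 between 26 and 28 Mb the medians were -2.00 for 5 members and 0.17 for 7 others.

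A few members shared their values. MSTRG.3116.1, MSTRG.6460.1 and MSTRG.18566.1, each of 221 nt and on chromosomes 11, 14 and 24, were all listed at 0 in cold acclimated cells and at 0.594 FPKM in control cells. MSTRG.17420.1 and MSTRG.18387.1, of 266 and 228 nt on chromosomes 23 and 24, both had 0.517 FPKM in cold acclimated cells, with control values of 0. No other members shared both means. Whether such members are copies of a repeated sequence was not tested, since the genome sequence was not used here.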

How the data were processed

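RNA of 6 ZF4 cultures was sequenced, 3 cold acclimated and 3 control. The authors aligned the reads to GRCz10 with HISAT2 2.1.0, assembled transcripts with StringTie 1.3.3, kept presumed lncRNAs, and deposited a mean FPKM per group. Thrice the deposited value had at most 6 decimals for 99.7% of the cold acclimated and 99.9% of the control means (tolerance 1.6e-08). The authors' log2 fold changes, p-values, FDR and calls in the table were not used. A test on replicate values was not made, because each group has a single column of means. Log2 ratios (cold acclimated over control) were taken across all transcripts after adding 0.1 FPKM, which understates changes of low values, for those above 0.5 FPKM in at least 1 group. A 2-fold difference was the threshold. Library depth is unknown.

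The members, lists and limits were chosen with earlier results of these data known. Named members are the 6 highest in each group, the 6 with the largest and lowest log2 ratios, those in the study's text, and the longest runs (7 were tied). Others were chosen after their values were seen. No sequence was used. Alternatives covered pseudocount, filters, scaling, fold, length limit, transcripts per locus, chromosome 4 and run gap. Tables were handled with pandas 2.3.3 in Python 3.11.15, ranks were computed with scipy 1.17.1, quantiles with numpy 2.4.6, and figures drawn with matplotlib 3.10.9.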

Additional observations from a re-analysis of the deposited data

How the results depend on the processing

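The means carry no replicate error, and depth per library is unknown, so the precision of a member near 0.5 FPKM could not be given. No paired analysis was possible because each group has a single column of means that carries no replicate number, and for the same reason no replicate could be left out. The count of members more than 2-fold higher was 280 as reported, 45 with a pseudocount of 1, 100 with a limit of 1 FPKM, 427 with the groups scaled to a median of 0, 138 at 4-fold and 185 below 300 nt. The count of lower members was 611 as reported and 50, 217, 433, 314 and 370 under the same settings. With a pseudocount of 1 the counts of higher and lower members were thus nearly equal. Over all transcripts 23.5% were higher and 23.9% lower with scaling, and 6.02% and 16.6% at 4-fold. For the pseudocount of 1 and the limit of 1 FPKM, shares over all transcripts were not computed. The counts below 300 nt come from a shorter list, since 835 members of that length passed the main limit. Their shares were 23.9% higher and 43.7% lower below 250 nt, and 19.6% higher and 45.2% lower from 250 nt. Over all transcripts 13.3% were higher and 39.4% lower. The median log2 ratio of -0.75 was -0.37 with a pseudocount of 1, -0.12 with scaling and -0.56 with no filter. Limits chosen after seeing the data gave 35 higher and 57 lower members with a median of -0.17 (above 0.5 FPKM in both groups), and 110 higher and 289 lower (FPKM times length in kb above 0.25 in at least 1 group). Over all transcripts 7.10% were higher and 15.9% lower with the former limit, and shares were not computed for the latter. The control median of 0.731 FPKM was 0.657 FPKM below 300 nt. The 76 runs became 167 with gaps of up to 50 kb. Fewer members pass the stricter limits (568 above 1 FPKM, 466 above 0.5 FPKM in both groups and 702 by FPKM times kb, against 1378), but the shares moved too, and the cause was not tested. With a pseudocount of 0.01 and without chromosome 4, counts stayed within 1.5 times those reported. Medians stayed within a 95% interval of the median, which treats transcripts as independent and measures no spread between cultures. Taking 1 transcript per locus could change nothing, since each member stands alone at its locus. Leaving out members that overlap another transcript kept 1335 of 1378, so it could change little, and gave 277 higher and 590 lower. Of the 17 members named for level or ratio, all but MSTRG.20043.1 (-1.24, and -0.60 scaled) kept their side of 2-fold after scaling, MSTRG.23402.1 changed sign within 2-fold, and all 17 kept their side with either other pseudocount.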
